A study of Mus musculus with 4 samples.

Results

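Peaks of RNA recovery were examined that were called in the wild-type Lin28b immunoprecipitate (IP), lay inside a protein-coding gene on its own strand, and shared not 1 base with any peak of the RNA-binding mutant. Of the 11912 peaks in the wild-type list, 6001 overlapped no peak of the mutant list on the same strand, and 5658 of these had their summit in the span of a protein-coding gene. They made up 47.5% of the wild-type list (exact Clopper-Pearson 95% interval 46.6% to 48.4%) and fell in 2504 of 11748 protein-coding genes (21.3%). The mutant list held 15931 peaks. Since the members were chosen by presence in one list and absence from the other, their folds, their genes' recovery and every difference from the mutant are given as descriptions, with no test.

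The study measured RNA bound to Flag-tagged Lin28b in mouse pancreatic cancer-associated fibroblasts (CAFs), the line 15376CAFs, which carried either the wild-type protein (Lin28b-WT) or a mutant that is deficient in RNA binding (Lin28b-MU). In both, the tagged protein was overexpressed, and no age, strain or treatment is given for the line. The 4 libraries fell into 4 groups of 1, an IP and an input from the wild-type cells and an IP and an input from the mutant cells. With 1 library in each group no difference has a replicate check, and intervals on shares cover counting error only. The extraction protocol in the labels names neither crosslinking nor RNase digestion, and a stranded mRNA kit was used. All coordinates are in GRCm38 (mm10) and counted from 1.

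Lin28b is an RNA-binding protein of embryonic and tumour cells with a cold-shock domain and a pair of zinc knuckles. It is best known for binding the loop of let-7 precursors, where the zinc knuckles contact a GGAG element, and so blocking maturation of these microRNAs. In other cells it has also been found on a large number of mRNAs, among them those of RNA-binding proteins, ribosomal proteins and cell-cycle regulators.

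The sequences below show what the peaks cover at annotated RNA features, and all are RefSeq entries of build GRCm38.p6 printed 5′ to 3′ on the strand of the gene. No genome was used here, so the peaks' own sequences are not printed, and exons, introns and untranslated regions were not assigned. An annotated microRNA hairpin within its host gene was overlapped by 4 of the peaks, and the 7 mature forms are given first because their sequences lie whole inside a peak. Capitals mark the seed, bases 2 to 8, and no seed was shared between the 7.
mmu-miR-1892 (in Sptssa): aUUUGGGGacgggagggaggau
mmu-miR-677-5p (in Atp5b): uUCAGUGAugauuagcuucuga
mmu-miR-677-3p (in Atp5b): gAAGCCAGaugccguuccugagaagg
mmu-miR-7079-5p (in Rpl13): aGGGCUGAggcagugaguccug
mmu-miR-7079-3p (in Rpl13): uGACUUCUguucucuuuccag
mmu-miR-7657-5p (in Fnbp1l): aAUAGUUGgauaguuagguaa
mmu-miR-7657-3p (in Fnbp1l): uUCCUUGCuauucccaacuuggu

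A fold here and throughout is the authors' own value at the summit of a peak, and FPKM is the level of a gene scaled by its length and by the reads of the library. Of the 4 hairpins, 2 held the letters GGAG on the RNA strand, those of miR-1892 and miR-7079, against 447 of all 1005 mouse hairpins in the table (44.5%). Hairpins were not particular to this set: shared peaks covered 6, of which 1 held GGAG, and mutant-only peaks 7, of which 2 did. The peak over miR-1892 (chr12:54645450-54646145, minus strand) had a fold of 5.72 and lay in the last 10% of the span of Sptssa, which encodes a small subunit of serine palmitoyltransferase. Sptssa stood at 30.2 FPKM in the wild-type IP and 8.82 in its input, against 4.43 in the mutant IP and 10.1 in its input. The peak over miR-677 was 1 of 6 in Atp5b, the gene of the ATP synthase β subunit, and had a fold of 2.99. The peaks over miR-7657 and miR-7079 had folds of 2.90 and 1.71 and lay in Fnbp1l, which encodes an F-BAR protein of membrane bending, and in Rpl13, a ribosomal protein gene. Rpl13 was below input with both constructs: it stood at 583 FPKM in the wild-type IP and 708 in its input, and at 112 FPKM in the mutant IP and 579 in its input.

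At the other end of the gene, 39 of the 5658 peaks (0.689%) reached the window from 250 bases before to 50 after a RefSeq start. Of shared peaks 0.641% did so, and of mutant-only peaks 1.50%. The 3 stretches below were taken in order of fold among windows that hold at least 30 bases of the peak no further than 30 bases after the earlier of both annotated starts (RefSeq and the gene table). Since this choice required peak bases near the start, the stretches do not show how near to it the rest of the 39 peaks began. Stronger peaks with a summit near the 5′ end, those of Sting1 (fold 42.5) and Fmr1 (fold 29.2), are described below but not printed. Each of the 3 stretches is 150 bases long, and capitals mark the part inside the peak.
Prps1 (chrX:140456483-140456632, plus strand): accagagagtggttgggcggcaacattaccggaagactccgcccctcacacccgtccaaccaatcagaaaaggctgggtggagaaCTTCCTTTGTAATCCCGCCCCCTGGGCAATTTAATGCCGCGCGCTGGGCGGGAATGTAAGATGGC
Gnb1 (chr4:155491241-155491390, plus strand): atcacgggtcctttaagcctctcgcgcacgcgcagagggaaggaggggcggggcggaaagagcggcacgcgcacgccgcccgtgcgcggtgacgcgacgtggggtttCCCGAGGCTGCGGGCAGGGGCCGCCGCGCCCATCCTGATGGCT
Chchd1 (chr14:20702886-20703035, plus strand): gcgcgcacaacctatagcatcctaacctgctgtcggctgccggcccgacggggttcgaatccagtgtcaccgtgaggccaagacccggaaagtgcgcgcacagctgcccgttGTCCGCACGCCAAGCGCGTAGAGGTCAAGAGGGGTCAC

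The peak parts of these 3 stretches spanned 65, 43 and 38 bases, and none of the 3 held GGAG. Over the whole windows, GGAG on the RNA strand stood in 36 of the 42 that a wild-type-only peak reached (85.7%), close to its share of all 32817 start windows (83.7%). The longer GGAGA, whose first 4 letters are GGAG, stood in 13 of the 42 (31.0%) against 39.8% of all windows. In windows reached by shared and by mutant-only peaks, the shares were 89.7% and 88.5% for GGAG and 38.5% and 41.0% for GGAGA. Prps1, which encodes an enzyme that makes the nucleotide precursor PRPP, had this 1 peak, of fold 15.1, and stood at 22.6 FPKM in the wild-type IP and 17.5 in its input, against 12.1 in the mutant IP and 23.03 in its input. Gnb1, the gene of a G protein β subunit, had 8 wild-type-only peaks, of which this one had the highest fold, 11.5. Chchd1, a component of the mitochondrial ribosome, had 2, the one at the start having a fold of 9.09. Chchd1 stood at 105 FPKM in the wild-type IP and 40.9 in its input, against 14.6 in the mutant IP and 48.8 in its input. None of the 3 genes had a mutant peak.

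The gene levels behind these values have unknown depth, and the levels of wild-type and mutant libraries were normalised apart. The inputs did not show the fibroblast genes that the label implies: of 10 fibroblast markers, 4 were listed in the mutant table, and while Vim had 607 FPKM (wild type) and 547 (mutant), Col1a1 had 0.722 and 0.404, Pdgfra 1.33 and 0.860 and Acta2 0.227 and 0.524 in the same order. Of 5 epithelial markers 4 were listed, and Krt8, Krt18, Krt19 and Cdh1 ranged from 219 to 665 FPKM in wild-type cells and from 114 to 494 in mutant cells. Of 3 leukocyte markers 1 was listed, below 2.5 FPKM, and of 3 endothelial markers none. The cells are therefore called by their label only. Lin28b itself stood at 8.99 FPKM in the wild-type IP and 13.8 in its input, and at 36.7 in the mutant IP and 30.01 in its input. It carried no wild-type-only peak and 1 mutant-only peak. Its wild-type input was 0.459 times its mutant input, and the part this plays in differences between the constructs was not tested. In lysates of many cells, more RNA in each cell and more cells with that RNA cannot be told apart.

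Most wild-type-only peaks were narrow and moderate in fold. Their median width was 237 bases (interquartile range 204 to 371, full range 200 to 3667), 65.0% were under 300 bases wide and 15.9% had the smallest width in the list, 200 bases. Their median fold was 3.77 (interquartile range 2.63 to 5.66), the lowest fold was 1.09 and the highest 48.6. A fold of at least 10 was reached by 285 peaks, or 5.04% (4.48% to 5.64%). Since a wider peak has more bases to share, the overlap rule can itself sort peaks by width, and its part was not tested. Peaks of the wild-type list that did overlap a mutant peak in coding genes, 5769 in all, were wider, with a median of 279 bases, and 9.03% of them were 1000 bases or wider, against 3.11% of the wild-type-only peaks. Their folds had nearly the same middle, 3.70, and a higher top, 270, with 7.26% at 10 or more. The 9565 mutant-only peaks in coding genes came from the other list, whose folds and ranks are not on one scale with these: their median width was 237 bases, the same as that of the wild-type-only peaks, and their median fold 4.18.

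The 20 wild-type-only peaks of highest fold lay in 16 genes and had folds of 19.3 to 48.6. Only 2 of the 20 were 600 bases or wider, 11 lay between 40% and 80% of the way along the gene, and 1 lay in the last 10% of the span. The 16 genes included regulators of ubiquitin, RNA-processing proteins, DNA and chromatin factors and proteins of membrane traffic. Of these 16 genes, 10 had no mutant peak, about the share among all genes with a wild-type-only peak (1570 of 2504, 62.7%). At the level of the whole gene, 14 of the 16 were at least 2-fold above input in the wild-type IP, against 6.85% of the 11260 coding genes listed in both tables, and 2 of the 16 were so in the mutant IP, against 5.71% of those genes. The wild-type inputs of the 16 stood at 0.719 to 1.24 times the mutant inputs, so the starting levels of these genes differed by less than 1.5-fold between the constructs.

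Among genes of DNA and chromatin, Hpf1 had the strongest peak, at chr8:60899917-60900225 with a fold of 48.6, about the middle of the gene (52.9% of its span). Its protein directs PARP enzymes to serine residues in the response to DNA damage. Hpf1 stood at 105 FPKM in the wild-type IP and 22.6 in its input, against 8.44 in the mutant IP and 23.7 in its input. It held 7 wild-type-only peaks with folds from 3.85 upward, and the nearest mutant peak on the strand was 199 kb away. Orc5, a subunit of the origin recognition complex, had a peak of fold 21.4 and stood at 12.7 FPKM in the wild-type IP and 8.07 in its input, against 7.99 in the mutant IP and 8.97 in its input, so that the gene as a whole stayed short of 2-fold. Hells, a chromatin remodeller needed for DNA methylation, had 13 wild-type-only peaks, the strongest of fold 19.6, beside 3 peaks shared with the mutant, and stood at 48.2 FPKM in the wild-type IP and 22.4 in its input, against 28.6 in the mutant IP and 24.8 in its input.

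Genes of RNA metabolism supplied 7 of the 20 peaks. Rpl22l1, named for its kinship with ribosomal protein L22, had 2, of folds 29.1 and 25.4, in a gene whose span ran over chr3:28805436-28807424. Its level was 673 FPKM in the wild-type IP and 65.7 in its input, against 15.0 in the mutant IP and 61.7 in its input, so the gene was far above input with the wild type and below input with the mutant. Naf1 (chr8:66860217-66890564, plus strand), an assembly factor of H/ACA ribonucleoproteins, had 9 wild-type-only peaks, of which 3 were among the 20, with folds of 26.4, 24.3 and 21.0. Naf1 stood at 65.5 FPKM in the wild-type IP and 10.1 in its input, against 10.9 in the mutant IP and 14.0 in its input. Fmr1, the gene of the fragile X protein that binds mRNAs on ribosomes, had its strongest peak at the very start, 115 bases from the 5′ end of the span (chrX:68678564-68678843), with a fold of 29.2. Fmr1 held 5 wild-type-only peaks beside 1 shared peak. Its level was 49.2 FPKM in the wild-type IP and 21.5 in its input, against 17.9 in the mutant IP and 17.3 in its input. Rpp30, a subunit of RNase P and RNase MRP, had a peak of fold 19.7 and stood at 32.8 FPKM in the wild-type IP and 17.3 in its input, against 6.37 in the mutant IP and 23.03 in its input.

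Regulators of ubiquitin were Ube2d3, Otud4 and Dzip3. Ube2d3 encodes a ubiquitin-conjugating enzyme, and its peak of fold 29.3 (chr3:135462792-135463037) lay 3.23 kb from the nearest mutant peak. The gene stood at 444 FPKM in the wild-type IP and 79.2 in its input, against 79.1 in the mutant IP and 83.9 in its input. Otud4, a deubiquitinase gene, had 7 wild-type-only peaks and 8 shared ones, and stood above input with both constructs: 95.2 FPKM in the wild-type IP and 24.8 in its input, against 71.0 in the mutant IP and 32.5 in its input. Dzip3, the gene of a ubiquitin ligase, was recovered about alike by both, at 16.3 FPKM in the wild-type IP and 6.65 in its input, against 14.1 in the mutant IP and 7.33 in its input, and its strongest wild-type-only peak lay 0.557 kb from a mutant peak.

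Genes of membranes and signalling made up the rest. Sting1, which encodes the adaptor that relays cytosolic DNA sensing, had 6 wild-type-only peaks within a span of 6876 bases, the strongest (chr18:35740326-35740666) of fold 42.5 and 59 bases from the 5′ end. Sting1 stood at 13.2 FPKM in the wild-type IP and 4.93 in its input, against 2.41 in the mutant IP and 6.70 in its input. Ap1s2, a small subunit of the AP-1 clathrin adaptor, carried a peak that was both strong (fold 33.7) and wide (2650 bases), and stood at 19.8 FPKM in the wild-type IP and 3.75 in its input, against 4.49 in the mutant IP and 4.43 in its input. Tmed5, a cargo receptor between endoplasmic reticulum and Golgi, carried the other wide one, 2562 bases with a fold of 24.4, and stood at 51.2 FPKM in the wild-type IP and 13.2 in its input, against 12.4 in the mutant IP and 18.2 in its input. Csnk2a2 (a catalytic subunit of casein kinase 2) and Micu2 (a regulator of mitochondrial calcium uptake) had no mutant peak. Their wild-type IPs stood at 46.4 and 30.7 FPKM beside inputs of 16.7 and 11.4, against mutant IPs of 16.9 and 12.1 FPKM beside inputs of 17.0 and 13.4. Myo9a, which encodes an unconventional myosin, was the exception in direction: it stood at 22.0 FPKM in the wild-type IP and 8.14 in its input, against 33.7 in the mutant IP and 8.48 in its input, and held 3 wild-type-only peaks among 37 mutant peaks.

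**Figure D1:**
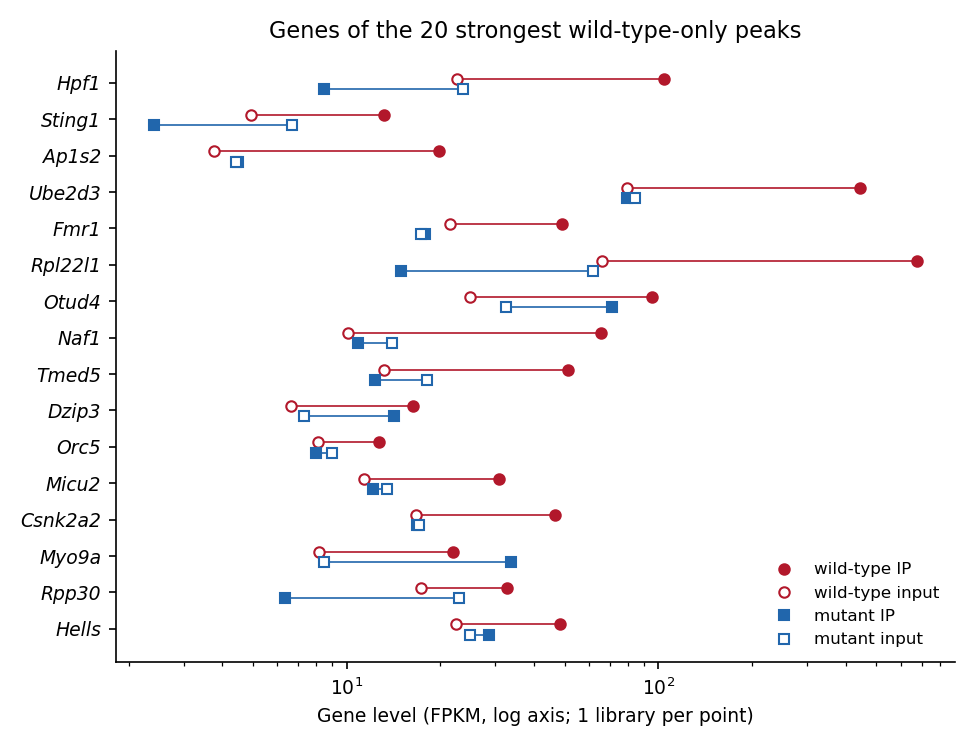
Level of the 16 genes that hold the 20 wild-type-only peaks of highest fold, in order of that fold, in FPKM on a log axis, with 1 point for each library (circles wild type, squares mutant, filled IP, open input). The wild-type IP stands to the right of its input in all 16. The mutant IP stands to the right of its own by more than 1.5-fold in Otud4, Dzip3 and Myo9a, and by less in Hells, Fmr1 and Ap1s2.

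Along the gene, wild-type-only peaks gathered at the 3′ end. The median summit lay at 0.814 of the span from the 5′ end, 78.8% of the peaks lay past the midpoint, and the last 10% of the span held 2084 of the 5658 peaks, or 36.8% (35.6% to 38.1%). The share was 2.09% in the first 10% of the span, 9.90% between 70% and 80%, and 15.2% between 80% and 90%. Shared peaks of the wild-type list had 37.9% (36.6% to 39.1%) in the last 10% and a median position of 0.795. Mutant-only peaks had 25.1% (24.2% to 26.0%) there, a median of 0.713, and 4.24% in the first 10%.

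In bases rather than in parts of the span the wild-type-only peaks stood closest to the 3′ end. Their median distance from it was 5796 bases, against 12836 for shared and 24557 for mutant-only peaks, and 1025 of the 5658 (18.1%, 17.1% to 19.1%) lay within 1000 bases of it, against 692 of the 5769 shared and 530 of the 9565 mutant-only peaks. Span length differed between the sets as well: the median peak stood in a gene of 40137 bases among wild-type-only peaks, of 78302 among shared and of 98726 among mutant-only peaks. The part that span length plays in the distances was not tested. Within 1000 bases of the 5′ end lay 85 wild-type-only peaks (1.50%), against 0.884% of shared and 2.27% of mutant-only peaks.

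**Figure D2:**
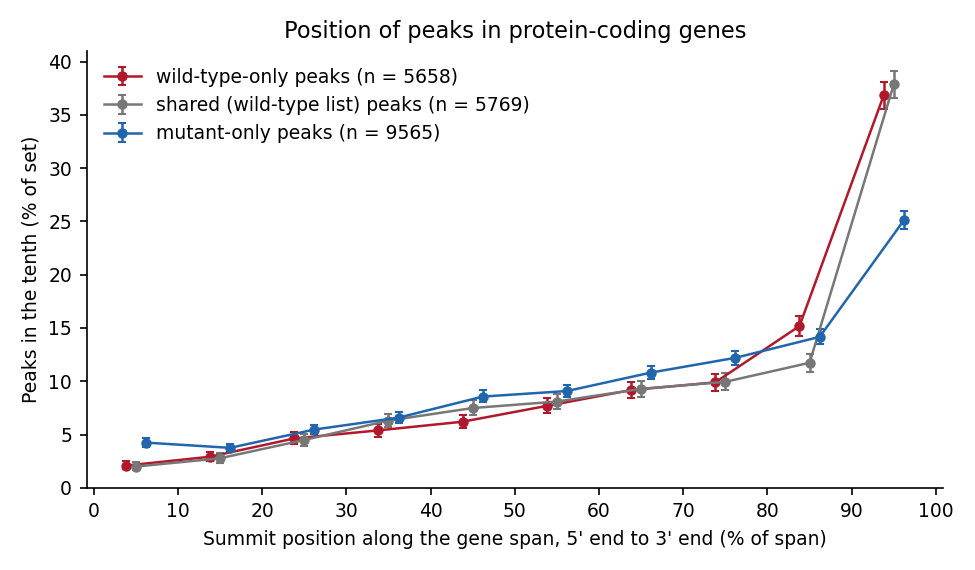
Share of peaks (%) by where along the gene span the summit lies, in steps of 10% from the 5′ to the 3′ end, for wild-type-only, shared and mutant-only peaks in protein-coding genes; bars are exact 95% intervals, and points are set slightly apart sideways. Wild-type-only and shared peaks reach 36.8% and 37.9% in the last 10%, and mutant-only peaks 25.1%.

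The last 10% of the span held the peaks of lowest median fold and largest median width. The median fold of wild-type-only peaks was 4.62 in the first 10% of the span, 4.97 between 20% and 30%, 4.19 between 60% and 70% and 3.10 in the last 10%. Peaks of fold 10 or more made up 11.9% of those in the first 10% but 1.30% of those in the last. The median width was between 212 and 237 bases over the first 90% of the span and 322 bases in the last 10%, where 5.33% of peaks were 1000 bases or wider. Among peaks of at least 300 and under 1000 bases, 56.9% lay in the last 10%, against 25.7% of those under 300 bases. The few very wide peaks were likewise near the end: of the 176 that reached 1000 bases, 63.1% lay in the last 10%. The widest was in Pafah1b2, which encodes a subunit of the brain acetylhydrolase of platelet-activating factor, at chr9:45965449-45969115 (3667 bases, fold 2.60). Aida, AW549877 and Ap1s2 held peaks of 2762, 2641 and 2650 bases, at 90.0%, 87.9% and 78.6% of their spans.

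**Figure D3:**
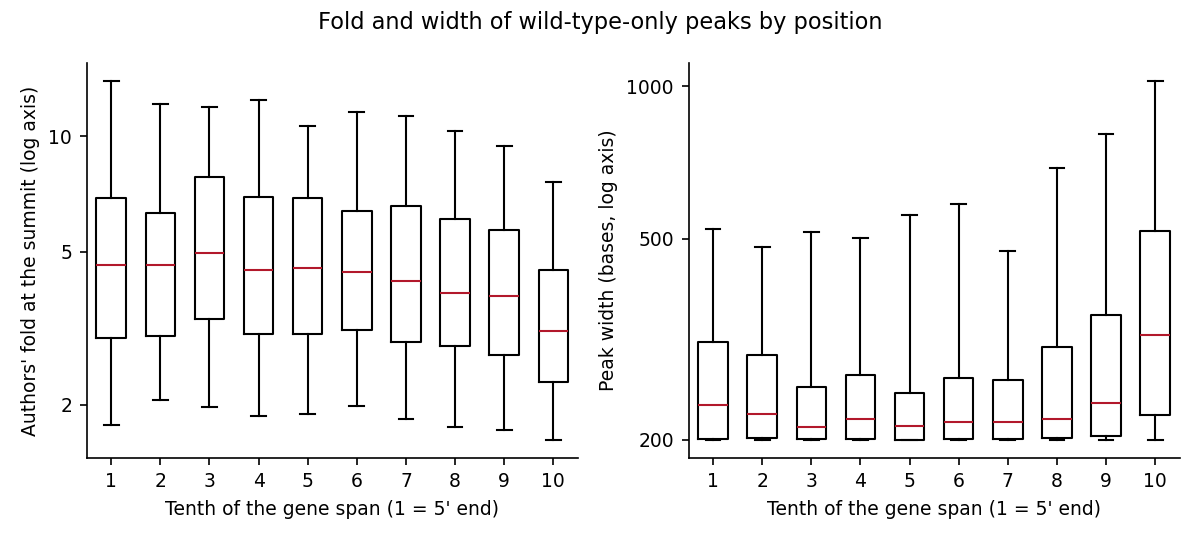
Authors' fold at the summit (left) and width in bases (right) of the 5658 wild-type-only peaks in 10 steps along the gene span, both on log axes; boxes are quartiles with the median in red, and whiskers run from the 5th to the 95th percentile. The median fold is lowest (3.10) and the median width highest (322 bases) in the last step.

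Wild-type-only peaks were spread thinly over many genes. Of the 2504 genes, 1187 (47.4%) had 1 such peak, 590 had 2, and 249 had 5 or more, which together held 1685 peaks. The mean was 2.26 for each gene, against 3.61 shared peaks in each of 1598 genes (13.6% of coding genes) and 5.30 mutant-only peaks in each of 1805 genes (15.4%), and the highest number in a gene was 15, against 49 and 118. Neighbouring wild-type-only peaks of a gene lay a median of 2649.5 bases apart (interquartile range 1131.5 to 7777.5, 3154 pairs). Among the genes that held at least 1, longer genes held only slightly more: the 626 with the shortest spans averaged 1.81, and the 626 with the longest spans 2.51. Holding any such peak varied more with span. In 10 equal classes of coding genes by span, the share was 8.08% in the shortest and 27.8% in the longest class.

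The 10 genes with 12 or more wild-type-only peaks were Galc, Jak2, Csnk2a2, Hells, Pls3, Cfap69, Eif3e, Fxr1, Cd109 and Sel1l3. The whole gene was at least 2-fold above input with wild-type Lin28b in 9 of these (background 6.85%) and with the mutant in 1 (background 5.71%). No mutant peak was present in 4 of the 10, beside 62.7% of all genes with a wild-type-only peak. Galc (chr12:98202294-98259459, minus strand), the gene of the lysosomal enzyme galactosylceramidase, had 15, spread from 4.25% to 98.9% of its span, beside 1 shared peak. Galc stood at 45.6 FPKM in the wild-type IP and 12.8 in its input, against 9.59 in the mutant IP and 6.35 in its input. Jak2, a kinase of cytokine receptors, had 14 beside 5 shared peaks and stood at 88.7 FPKM in the wild-type IP and 40.3 in its input, against 36.3 in the mutant IP and 22.0 in its input. Pls3, an actin-bundling protein gene, had 12 wild-type-only peaks, all between 65.8% and 93.9% of its span, beside 2 shared peaks. It stood at 130 FPKM in the wild-type IP and 37.5 in its input, against 44.6 in the mutant IP and 36.6 in its input.

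Eif3e, a subunit of translation initiation factor 3, had 12 wild-type-only peaks and no mutant peak, with 314 FPKM in the wild-type IP and 127 in its input, against 67.3 in the mutant IP and 93.1 in its input. Fxr1, a relative of Fmr1, had 12 wild-type-only peaks beside 1 shared peak. It stood at 188 FPKM in the wild-type IP and 73.9 in its input, against 84.2 in the mutant IP and 77.5 in its input. Csnk2a2 had 14 wild-type-only peaks, with folds from 2.14 to 21.0. Starting levels differed in part of this set: the wild-type input of 4 of the 10 genes was at least 1.5 times the mutant input, namely 2.02 times in Galc, 1.83 in Jak2, 5.25 in Cfap69 and 2.38 in Sel1l3. The part that starting level plays in the absence of a mutant peak was not tested.

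Absence of an overlapping mutant peak did not mean absence of a mutant peak from the gene. Of the 2504 genes, 1570 (62.7%) had no mutant peak and held 3296 of the peaks, and 934 had one or more and held 2362. Shared peaks stood in 813 of the genes, mutant-only peaks in 476 and both in 354. The nearest mutant peak on the strand was a median of 70629 bases away. Closer than 500 bases were 272 peaks (4.81%), and closer than 1000 bases 540 (9.54%). The 5 peaks just inside the rule, in Zfp942, Lcorl, Psd3, Ints2 and Dyrk2, lay 47, 88, 89, 100 and 101 bases from a mutant peak, with folds of 7.55, 3.88, 2.28, 4.04 and 3.13. The 5 just outside it, in Tbc1d23, Fchsd2, Sash1, Jmy and Brwd3, overlapped a mutant peak by 4, 5, 13, 19 and 24 bases, with folds of 2.83, 3.94, 1.998, 3.66 and 6.56.

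Within the 813 genes that held both kinds, the median wild-type-only peak of a gene lay nearer the 5′ end than the median shared peak, at 0.753 of the span against 0.865, and it was the narrower, at 223.5 bases against 372. Their folds were close, 4.01 for wild-type-only and 4.17 for shared peaks, and the strongest peak of the gene was a wild-type-only one in 354 of the 813. Within the 476 genes that held both wild-type-only and mutant-only peaks, position hardly set the sets apart: the medians were 0.758 and 0.747, and the wild-type-only value was the larger in 232 genes.

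The genes' overall recovery was read from the log2 ratio of IP level over input level, each with 0.01 added. These ratios come from the libraries that chose the peaks. In the 2504 genes the median log2 ratio was 0.56 with wild-type Lin28b and −0.07 with the mutant, and over all 11260 coding genes in both tables it was −0.25 and −0.49. With the wild type, 512 of the genes were at least 2-fold above input (20.4%, background 6.85%) and 8 at least 2-fold below (0.319%, background 18.8%). With the mutant, 150 were above by that much (5.99%, background 5.71%) and 331 below (13.2%, background 32.5%). The log2 ratio with wild-type Lin28b was at least 1 above that with the mutant in 800 genes (31.9%, background 22.1%). These values depend on scaling: with each table centred on its own median, the medians of the 2504 genes were 0.86 and 0.54, so that the mutant median turned from below to above 0. The count above input with the wild type was then 974 (background 12.9%), and the count with a difference of at least 1 was 529 (background 14.4%). The share of genes whose wild-type input was at least 2-fold above the mutant input was near the background, 3.91% beside 4.53%, and the mutant input was the higher by that much in 2.16% beside 3.9% (levels with 1 added).

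The genes split by whether the mutant had any peak in them. Peaks and ratios come from the same IP reads, so the contrasts in this paragraph follow in part from the choice of genes. In the 1570 genes with none, the median log2 ratio was 0.46 with wild-type Lin28b and −0.43 with the mutant, and the difference reached 1 in 731 (46.6%, background 22.1%). In the 934 genes with a mutant peak it was 0.72 and 0.50, and the difference reached 1 in 69 (7.39%, same background). More peaks went with more recovery in the wild-type IP: the median log2 ratio was 0.36 in genes with 1 wild-type-only peak, 0.68 with 2 to 4 and 1.04 with 5 or more. The mutant medians were −0.16, −0.06 and 0.17. Of the 199 genes with a wild-type-only peak of fold 10 or more, 123 (61.8%, background 6.85%) were at least 2-fold above input with wild-type Lin28b and 23 (11.6%, background 5.71%) with the mutant. Of the 214 genes whose wild-type-only peaks were all below a fold of 2, 1 was above input by that much in the wild-type IP (background 6.85%), and their median log2 ratio was 0.11.

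**Figure D4:**
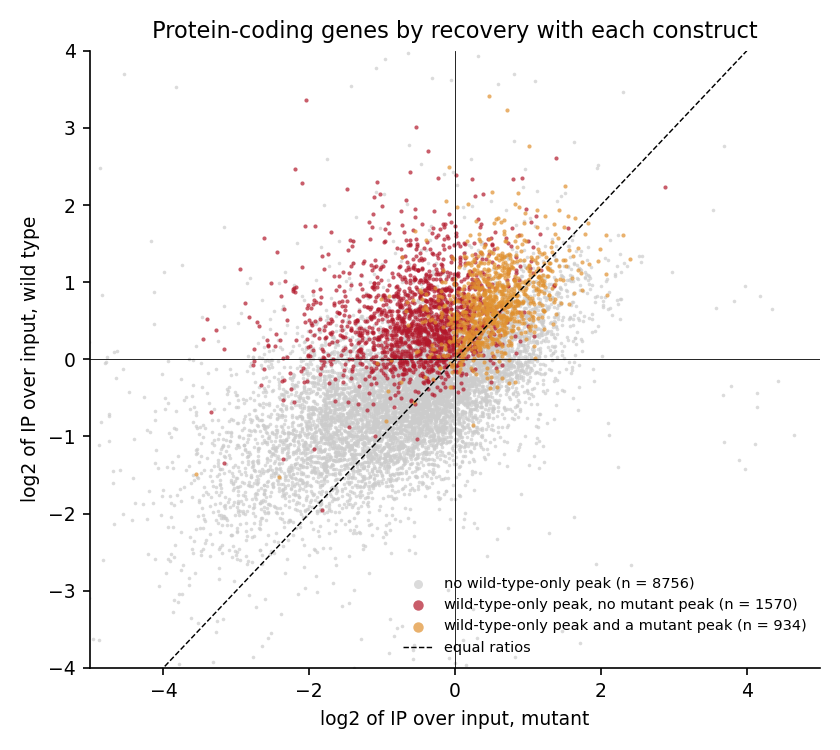
Log2 ratio of IP over input for the 11260 protein-coding genes of both tables, mutant across and wild type upwards, with 1 point for each gene; 169 genes fall outside the axes. Genes with a wild-type-only peak and no mutant peak (red) lie mostly above the line of equal ratios and left of 0, and genes that also hold a mutant peak (orange) lie mostly above 0 on both axes.

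Among the 20 gene lists examined, wild-type-only peaks were most frequent in genes of RNA-binding proteins. Of 85 hnRNP, SR and related RNA-binding protein genes, 42 held at least 1 (49.4%, 38.4% to 60.5%), beside 21.3% of all coding genes, with 82 peaks in all. Shared peaks were also more frequent in this list, in 23 of the 85 (27.1%, background 13.6%). Mutant-only peaks stood in 9 of the 85 (10.6%, background 15.4%). As a group these genes stood near their input in the wild-type IP, with a median log2 ratio of 0.09, and lower in the mutant IP, at −0.34. Taf15, an RNA-binding protein of the FET family, had 7 wild-type-only peaks and no mutant peak. It stood at 120 FPKM in the wild-type IP and 49.1 in its input, against 41.0 in the mutant IP and 58.0 in its input. Rbm39, a splicing cofactor, held the strongest wild-type-only peak of the list, of fold 8.90, beside 1 shared peak. Yet the whole gene was close to input at 66.2 FPKM in the wild-type IP and 62.1 in its input.

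Of 53 spliceosome core genes 16 (30.2%) held a wild-type-only peak, with an interval of 18.3% to 44.3% that includes the 21.3% of all coding genes. Shared and mutant-only peaks each stood in 6 of the 53 (11.3%), beside 13.6% and 15.4% of all coding genes. Of the 16, 15 had no mutant peak, beside 62.7% of all genes with a wild-type-only peak. Snrpa1, which encodes the U2 protein A′, had 5 and stood at 81.2 FPKM in the wild-type IP and 33.5 in its input, against 19.0 in the mutant IP and 45.4 in its input. Prpf39, a U1-associated factor, had 8, with folds of 4.19 to 11.5. Of 50 DEAD and DEAH box helicase genes 14 (28.0%, 16.2% to 42.5%) held wild-type-only peaks and as many held mutant-only peaks (background 15.4%). Of 27 genes reported as LIN28 targets in other cells 8 (29.6%, 13.8% to 50.2%) held wild-type-only peaks, and 11 (40.7%, background 13.6%) held peaks shared by both constructs. Among them Hmga2 (chr10:120361275-120476469, minus strand), a chromatin protein gene known as a let-7 target, had 3 wild-type-only peaks with folds of 9.64 to 17.4, beside 2 shared peaks. Hmga2 was above input with both constructs. It stood at 371 FPKM in the wild-type IP and 39.5 in its input, against 23.7 in the mutant IP and 14.6 in its input. Its wild-type input was 2.71 times its mutant input, and the part this plays was not tested.

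Of 65 initiation and elongation factor genes 20% held shared peaks and 10.8% mutant-only peaks, beside 13.6% and 15.4% of all coding genes. Wild-type-only peaks stood in 24 of the 65 (36.9%, 25.3% to 49.8%, background 21.3%), 18 of the 24 without a mutant peak (62.7% among all such genes). Eif3l had 10 and stood at 313 FPKM in the wild-type IP and 98.3 in its input, against 88.0 in the mutant IP and 131 in its input. Of 79 cytosolic ribosomal protein genes 17 (21.5%) held such peaks, as in coding genes at large, and none of the 17 held a mutant peak, where 62.7% of all such genes had none. Over the 79, shared peaks stood in 0 and mutant-only peaks in 2 (2.53%), beside 13.6% and 15.4% of all coding genes. Their median span was 3289 bases, and the part of span in the missing mutant peaks was not tested. That list as a whole was below input with both constructs, with median log2 ratios of −0.94 for wild-type Lin28b and −2.68 for the mutant. In the wild-type IP, 3 of the 79 were at least 2-fold above input (background 6.85%). Rpl5 had 7 of the wild-type-only peaks and stood at 768 FPKM in the wild-type IP and 286 in its input, against 172 in the mutant IP and 288 in its input. Rps16 stood at 845 FPKM in the wild-type IP and 256 in its input, against 50.5 in the mutant IP and 210 in its input. Near-identical processed copies of ribosomal protein genes may share reads with them, so these levels are uncertain.

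Genes of protein turnover held wild-type-only peaks in shares whose intervals overlap, beside 21.3% of all coding genes. Of 32 ubiquitin-conjugating enzyme genes 13 (40.6%, 23.7% to 59.4%) held wild-type-only peaks and 1 held mutant-only peaks (3.1%, background 15.4%). Of 44 proteasome genes 13 (29.5%, 16.8% to 45.2%) held wild-type-only peaks, 11 of the 13 without a mutant peak (62.7% among all such genes). In the whole list 6.82% held a shared peak and 9.09% a mutant-only peak, beside 13.6% and 15.4% of all coding genes. Psma3, an α subunit of the core particle, stood at 104 FPKM in the wild-type IP and 37.7 in its input. Its level was 19.4 FPKM in the mutant IP and 51.7 in the mutant input. Of 50 deubiquitinase genes 12 (24.0%, 13.1% to 38.2%) held wild-type-only peaks, but 22 held mutant-only peaks (44.0%, background 15.4%). The proteasome and deubiquitinase intervals for wild-type-only peaks include 21.3%. Median spans were 49585.5 bases in the deubiquitinase list and 30398 in the ubiquitin-conjugating list, and the part of span was not tested. Of 56 cyclin and cell-cycle kinase genes 21 (37.5%, 24.9% to 51.5%, background 21.3%) held wild-type-only peaks. Ccnh, the cyclin of the CDK-activating kinase, stood at 16.5 FPKM in the wild-type IP and 7.65 in its input, against 6.998 in the mutant IP and 12.1 in its input, and had 3 such peaks.

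Secretory pathway genes of the TMED, SEC and COP families had wild-type-only peaks in 17 of 49 (34.7%, 21.7% to 49.6%), and Rab GTPase genes, which encode regulators of vesicle traffic, in 13 of 46 (28.3%). Sec63, a component of the endoplasmic reticulum translocon, had 9, with folds of 1.44 to 14.4, beside 1 shared peak. Zfp zinc finger genes held wild-type-only peaks in 79 of 312 (25.3%, 20.6% to 30.5%) and solute carrier genes in 42 of 196 (21.4%, 15.9% to 27.8%). Simple epithelial and junction genes held them in 3 of 11 (27.3%, 6.02% to 61.0%). Chromatin remodelling and histone methylation genes held them in 16 of 67 (23.9%, 14.3% to 35.9%), where 30 of the 67 held mutant-only peaks (44.8%, background 15.4%). Lower shares than the 21.3% of all coding genes were found in nuclear-encoded oxidative phosphorylation genes (16 of 89, interval 10.6% to 27.5%), mitochondrial ribosomal protein genes (9 of 78, 11.5%, 5.41% to 20.8%), integrin and matrix genes (5 of 39, 12.8%, 4.30% to 27.4%) and interferon-stimulated and nucleic-acid sensing genes (3 of 29, 10.3%, 2.19% to 27.4%). The interval excluded 21.3% for the mitochondrial ribosomal list alone among these 4. Sting1 was 1 of those 3. The mitochondrial ribosomal genes that did hold one included Mrps22, which had 4 and stood at 37.9 FPKM in the wild-type IP and 13.6 in its input, against 12.9 in the mutant IP and 19.8 in its input.

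**Figure D5:**
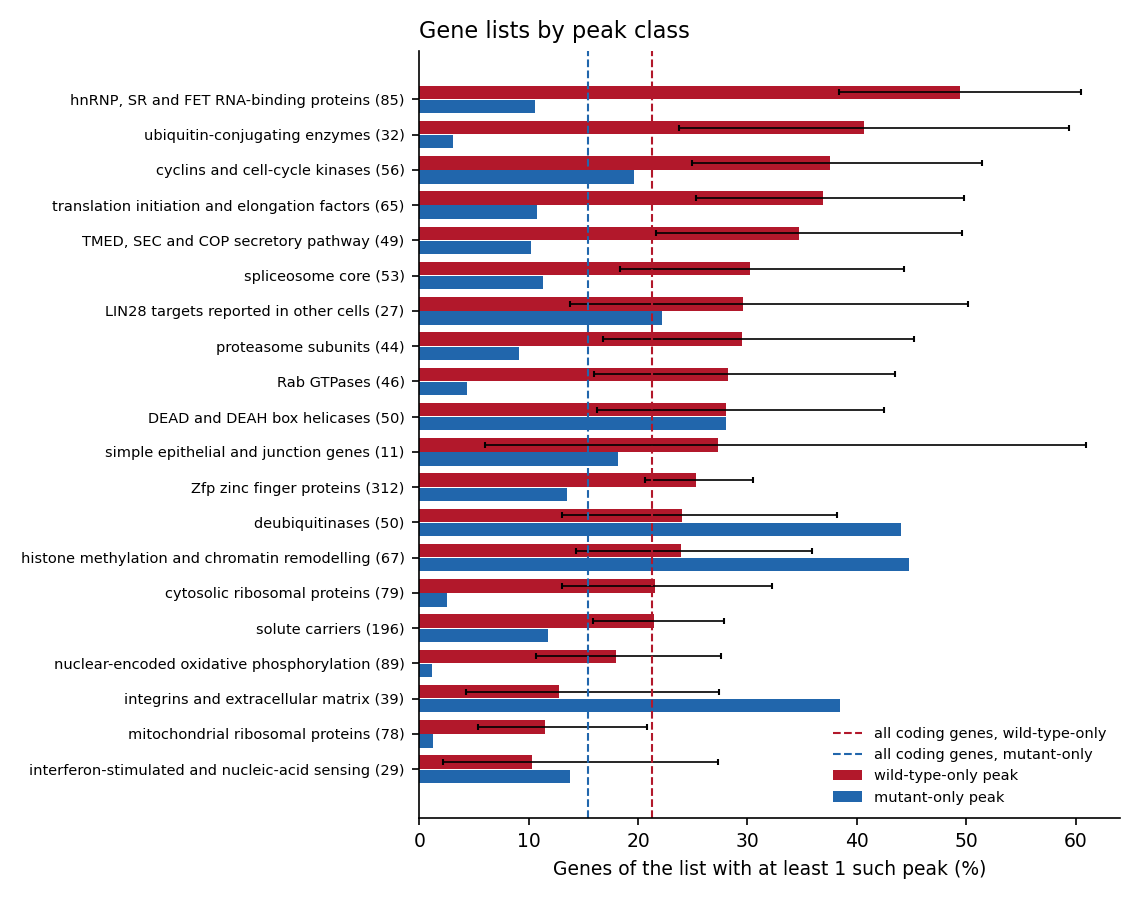
Share of genes (%) with at least 1 wild-type-only peak (red, with exact 95% intervals) or mutant-only peak (blue, no interval drawn) in 20 gene lists, with the number of genes in brackets; dashed lines mark all coding genes, 21.3% and 15.4%. The red bar is longest for hnRNP, SR and FET genes (49.4%) and shortest for interferon-stimulated genes (10.3%).

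The share of genes that held a wild-type-only peak went with level and length, in which the lists also differ; the part of either in a list's share was not tested. With the genes in 10 equal classes of wild-type input level, the share with such a peak was 3.64% in the lowest class and 29.8% in the highest. With 10 equal classes of span it was 8.08% in the shortest, 32.3% in the class before the longest and 27.8% in the longest. For mutant-only peaks it was 1.24% in the shortest and 41.9% in the longest. The median span was 20110 bases in the RNA-binding protein list, 3289 bases in the ribosomal protein list and 61614 bases in the chromatin list, against 23344 bases in all coding genes.

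Genes of the X chromosome held wild-type-only peaks more often than autosomal genes. On the X, 123 of 337 coding genes held a wild-type-only peak (36.5%, 31.3% to 41.9%), against 2375 of 11398 on the autosomes (20.8%, 20.1% to 21.6%), and single autosomes ranged from 12.6% on chromosome 7 to 26.3% on chromosome 3. Shared peaks were also more frequent in X genes (22.0% against 13.4%), while mutant-only peaks were about as frequent (17.5% against 15.3%). Over all coding genes of the chromosome, the median log2 ratio on the X was 0.23 with wild-type Lin28b and −0.30 with the mutant, and on the autosomes −0.26 and −0.50. Median spans were close, 25630 bases on the X and 23396.5 on the autosomes, as were median wild-type input levels, 11.02 and 11.4 FPKM. Fmr1, Ap1s2, Prps1 and Pls3, described above, are X-linked.

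On the mitochondrial genome the mutant list had no peak and the wild-type list had 13, of which 8 were in coding genes and 6 of the 13 coding genes held one. These peaks had low folds, 1.27 to 2.41. They lay in mt-Nd1, mt-Nd2, mt-Nd4 and mt-Nd6, which encode subunits of complex I, in mt-Co1 of complex IV and in mt-Cytb of complex III. The peak given to mt-Cytb, chrMT:11762-14628 with a width of 2867 bases, began outside that gene, since membership went by the summit alone. mt-Cytb stood at 1444 FPKM in the wild-type IP and 1289 in its input, against 287 in the mutant IP and 1162 in its input, so the gene was about level with input in the wild type and below input in the mutant. Over the 13 genes the median log2 ratio was 0.66 with wild-type Lin28b and −2.04 with the mutant.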

How the data were processed

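The 4 libraries (wild-type IP, wild-type input, mutant IP, mutant input) gave 2 gene tables and 2 peak lists. Per the submitters' processing notes, the software comprised bedtools, HOMER 4.11.1, MACS2 2.2.7.1 and HISAT2 2.1.0, and the genome build was GRCm38 (mm10); what each tool did is not stated there. The gene levels as deposited by the authors carry no named unit and were read as FPKM, that is, normalised by the authors to gene length and library reads. The reasons were that in 623 processed pseudogenes the evidence behind the p-value at a given level grew in step with span length (rank correlation across genes 0.927, Spearman) and that column sums ran from 207301 to 321238. Read totals are unknown. Adding 0.01 to both levels before taking log2 of IP over input gave back the authors' deposited log2 ratio to within 1.57e-09, and ratios were computed this way. The authors' deposited p-value and q-value of each gene compare 2 libraries by a test that no source names, and the q-value was used in 1 alternative only. In the deposited narrowPeak lists, 1 for each IP with the strands called apart, the score is a display value and was not used, the fold is the value the layout gives for the summit, and p-value and q-value are kept as −log10 values. No source says whether peaks were called against the input.

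A wild-type peak was a member where it shared no base with a mutant peak of the same strand and its summit lay in a protein-coding gene of the mutant table on that strand. A summit in several genes (46 peaks) went to a named gene before a predicted one, then to the shortest span. Position is the distance of the summit from the 5′ end over the span. No p-value was computed, since each group had 1 library; shares have exact Clopper-Pearson 95% intervals. The members and the 20 gene lists were chosen with earlier results of these data known. Genes were named by a rule: Lin28b, the genes of the 20 strongest and 5 widest peaks, the 8 genes with most peaks (10 with ties), those at the edge of the overlap rule, and the 3 members of each list with the strongest peak; predicted genes were left out of the ranked parts. Genes of the printed sequences, and the mitochondrial genes other than mt-Cytb, were chosen after their values were seen. MicroRNAs (1005 hairpins) and start windows came from RefSeq tables matched by coordinates. A planned search for motifs around summits was not run, since no genome was used here. Overlap and assignment were tested on simulated intervals. Tools were Python 3.11.15, numpy 2.4.6, pandas 2.3.3, scipy 1.17.1 and matplotlib 3.10.9. Other overlap rules, thresholds, gene assignments, pseudocounts and scalings were tried, 13 alternatives in all.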

Additional observations from a re-analysis of the deposited data

Results flagged for a closer look

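Outside the protein-coding genes, 343 further peaks of the wild-type list overlapped no mutant peak: 81 in genes of other classes, 62 in genes of the wild-type table alone and 200 in no gene of either table on the strand. One of these, at chr13:48535497-48538161 on the minus strand, held the hairpins of let-7d and let-7f-1, with a fold of 9.16 and a width of 2665 bases. No peak of the mutant list lay over a let-7 hairpin, and the nearest mutant peak on that strand was 341109 bases away.

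Among the genes of the strongest peaks, 3 were at least 2-fold above input in the wild-type IP and at least 2-fold below input in the mutant IP. The wild-type log2 ratio exceeded the mutant ratio by 5.40 in Rpl22l1, by 3.70 in Hpf1 and by 2.89 in Sting1. The difference was not tested, since each construct had 1 IP and 1 input.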

How the results depend on the processing

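No paired analysis was possible because each group had 1 library, and for the same reason no replicate could be left out. The number of peaks (5658) and of genes (2504) stayed within 1.5 times under every alternative but a wild-type fold of at least 5, which left 1778 peaks in 1007 genes with a median fold of 6.93, width of 226.5 bases and position of 0.694; that setting removes peaks by construction. Where only a mutant peak covering at least 50% of the wild-type peak counted as overlap, the median width was 245 bases and the position 0.828, and where a mutant peak within 500 bases also counted, the position was 0.806. With −log10 q-values of at least 10 in both lists the median fold was 4.19 and the position 0.799. With only the strongest mutant peaks kept, as many as the wild type had, the fold was 3.64, the width 249 bases and the position 0.837. At gene level, the median log2 wild-type ratio of 0.56 became 0.52 with a pseudocount of 1. Centring each table on its own median put it at 0.86 and the mutant median at 0.54 in place of −0.07, with 974 genes (background 12.9%) at least 2-fold above input in the wild-type IP in place of 512, and 529 (background 14.4%) with a wild-type ratio at least 1 above the mutant ratio in place of 800. Overlap on either strand, whole peaks inside the gene, summits in several genes left out, genes of both tables only, a level filter of 1 and the authors' q-value under 0.05 moved none of these values beyond their limits. The causes of the shifts were not tested. Depth is unknown, so no limit of detection can be given for a missing mutant peak.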
